A study of Mus musculus with 8 samples.

Results

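The insulin-like growth factor (IGF) system was followed through 10 genes, the ligands *Igf1* and *Igf2*, the receptors *Igf1r* and *Igf2r* and the binding proteins *Igfbp1* to *Igfbp6*. They were taken by gene symbol, and all 10 were found among the 23467 genes of the RNA-seq table. Of these, 9 had a mean of at least 1 RPKM, the level above which the 13421 tested genes lay, and *Igfbp5* was described without a test. RPKM gives a gene's reads relative to gene length and library size, so levels can be compared between genes.

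The RNA was from hepatoblasts isolated from E14.5 livers and cultured (iHBs), and from cells differentiated from them to hepatocytes (iHPs) or to biliary epithelial cells (iBECs). Control cells were labelled wild type, and the L1L2_Alb cells were labelled Lats1-/-;Lats2f/fl;Alb-cre, both on a mixed B6;129 background. There was 1 control library in each of the 3 stages, with 1 L1L2_Alb library of iHBs and 2 each of iHPs and iBECs, 8 libraries in all. According to the labels, iHPs were made with 12.5 ng/ml Oncostatin M for 5 days and iBECs in Matrigel for 14 days, and the stages thus differed in medium, matrix and time together. Lats1 and Lats2 are kinases of the Hippo pathway that hold back the co-activators YAP and TAZ. By its genotype *Lats1* is lost in all cells of the mutant, whereas *Lats2* is deleted only in cells that have expressed the Albumin-driven Cre. The culture medium held insulin and dexamethasone in both genotypes.

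IGF1 and IGF2 are small secreted peptides that signal through the tyrosine kinase receptor IGF1R, while IGF2R (the mannose 6-phosphate receptor) takes up IGF2 for degradation and has no kinase. The binding proteins carry the ligands outside the cell, and can hold them away from the receptor or bring them to it. In the fetal liver *Igf2* is made by hepatoblasts from the paternal allele and *Igfbp1* is a hepatocyte product held down by insulin. *Igfbp3* is often counted as a YAP target, and its direction is therefore given beside those of its paralogs.

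The promoter windows of the genes on which the comparisons turn are shown first, from 250 bases before to 50 after the annotated start (RefSeq, GRCm38.p6, 5′ to 3′ on the gene's strand). All 10 genes had at least 1 window, 14 in total. *Igfbp1* and *Igfbp3* lie next to each other on chromosome 11, and *Igf2* on chromosome 7 has only the non-coding Gm33148 between itself and the imprinted RNA *H19*. The letters searched for on both strands were CATTCC, the core bound by TEAD factors, the DNA-binding partners of YAP (in 14.7% of 32851 windows of all genes), CAAAACAA, the core of the insulin response element (2.51%), and TGTTTAC, a forkhead core (3.65%). None of these letter strings overlapped another in the members' windows. Capitals mark the matches in the windows of *Igfbp1* (+ strand, chr11:7197537-7197836), *Igfbp3* (- strand, chr11:7213874-7214173) and the most TEAD-rich of 4 windows of *Igf2* (- strand, chr7:142661222-142661521).
*Igfbp1*: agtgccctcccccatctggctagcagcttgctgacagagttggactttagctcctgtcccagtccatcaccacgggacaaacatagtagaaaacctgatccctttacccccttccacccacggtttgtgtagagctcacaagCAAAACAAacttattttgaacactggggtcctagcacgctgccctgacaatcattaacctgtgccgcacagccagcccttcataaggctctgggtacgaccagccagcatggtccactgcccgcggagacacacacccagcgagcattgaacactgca
*Igfbp3*: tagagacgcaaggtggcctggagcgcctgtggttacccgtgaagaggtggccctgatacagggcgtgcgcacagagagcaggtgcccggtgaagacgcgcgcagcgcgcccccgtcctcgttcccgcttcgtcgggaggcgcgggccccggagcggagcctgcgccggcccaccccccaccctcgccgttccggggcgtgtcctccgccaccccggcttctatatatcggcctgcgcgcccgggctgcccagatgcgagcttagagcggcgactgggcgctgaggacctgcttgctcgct
*Igf2*: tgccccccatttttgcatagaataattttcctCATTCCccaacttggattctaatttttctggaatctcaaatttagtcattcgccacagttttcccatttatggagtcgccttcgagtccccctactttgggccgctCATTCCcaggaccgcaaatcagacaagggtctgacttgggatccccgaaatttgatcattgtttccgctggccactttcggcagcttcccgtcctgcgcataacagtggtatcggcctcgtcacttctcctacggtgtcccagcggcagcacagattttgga
The *Igfbp1* window held CAAAACAA at 108 bases before the start. The *Igfbp3* window, with 37 CpG dinucleotides and 71.7% G and C, held none of the 3 letter strings. The *Igf2* window held CATTCC at 218 and at 112 bases before the start, and 2 other *Igf2* windows held 1 match each. Among the other members only *Igfbp5* had CATTCC in its window. A match is only a run of letters, and binding was not measured here.

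The libraries held 18436865 to 33229075 reads, as recovered from the smallest steps of short genes. *Lats1* was at 5.38 to 11.2 RPKM in the controls and at 7.12 to 22.7 RPKM in the libraries labelled L1L2_Alb, and *Lats2* at 6.90 to 10.1 and at 10.9 to 27.6 RPKM, with *Lats2* higher by 0.90 on the log2 scale (adjusted p = 0.0312, limma). These whole-gene values do not show which exons were read, and they did not follow the direction of the labels, so that L1L2_Alb is used throughout as the name of a label. The known YAP targets *Ctgf* and *Cyr61* were higher in 5 of 5 of these libraries than in the control library of their stage. So were 22.9% of all tested genes. *Ankrd1*, also a YAP target, was below its control in L1L2_Alb iHP replicate 1 (303 against 333 RPKM). It was above its control in the other L1L2_Alb libraries, and its genotype difference was not called (0.58, adjusted p = 0.237, limma). *Alb*, the defining hepatocyte product, was present in every library, at 524 to 6162 RPKM. Control iBECs held 62.3 RPKM of *Krt7* against 399.6 RPKM in control iHBs, but 23271 against 1706 RPKM of *Spp1*, so that the biliary markers did not move one way with the iBEC label. The labels do not say whether libraries came from separate embryos or cultures, and p-values measure only the spread between these libraries.

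The 10 genes covered levels from 0.0160 to 1875 RPKM, with the same gene at each end of the order in every library. *Igfbp1* was the highest of the 10 in 8 of 8 libraries, and *Igfbp5* the lowest in 8 of 8. *Igf2*, *Igfbp3* and *Igfbp4* followed *Igfbp1* in the 3 controls. *Igf2* exceeded *Igf1* by 18.1 to 97.9 times, and *Igf2r* exceeded *Igf1r* by 3.02 to 10.5 times. The summed level of the 6 binding proteins was 965, 2263 and 1678 RPKM in control iHB, iHP and iBEC, against 444 RPKM in L1L2_Alb iHB, 567 and 409 RPKM in iHP and 1382 and 964 RPKM in iBEC. It was lower than the control in each of these 5 libraries, with *Igfbp1* taking 33.6% to 82.9% of it.

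**Figure D1:**
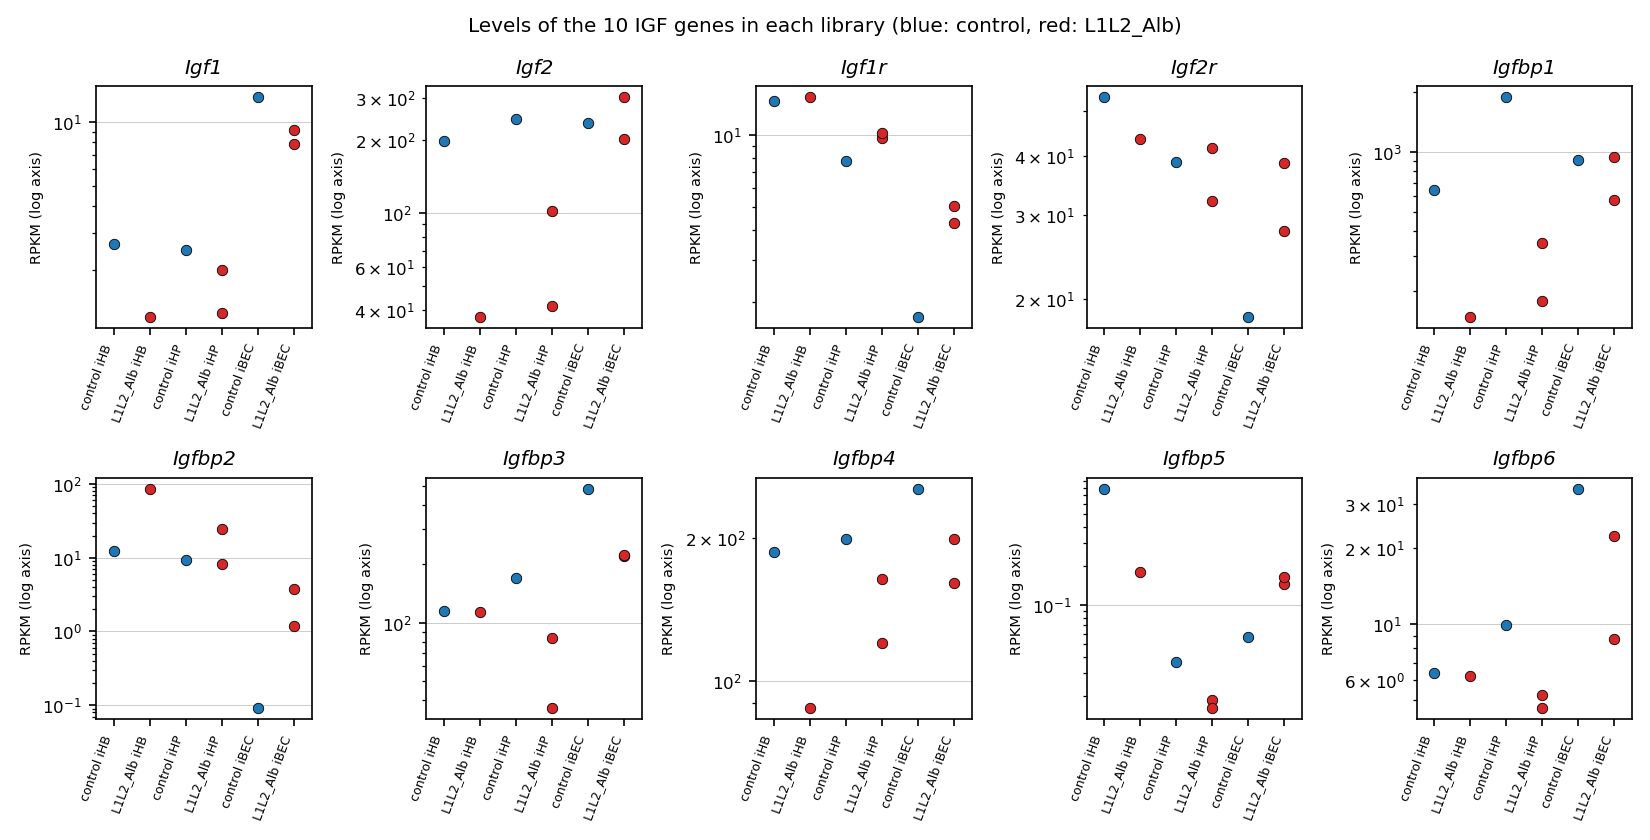
Level of each of the 10 IGF genes (vertical log axis, RPKM) in the 6 conditions (horizontal axis), with 1 point per library, blue for control and red for L1L2_Alb. *Igf1*, *Igfbp3* and *Igfbp6* were highest in control iBEC, and *Igf1r*, *Igf2r* and *Igfbp2* were lowest there.

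Of the ligands, *Igf2* was lower in L1L2_Alb libraries before and after hepatocyte differentiation, but not in iBECs. Control iHB held 199.6 RPKM of *Igf2* and L1L2_Alb iHB 37.4 RPKM. Control iHP held 244 RPKM, while the pair of L1L2_Alb iHP libraries held 41.4 and 103 RPKM. Control iBEC held 236 RPKM, and the L1L2_Alb iBEC libraries, with 203 and 301 RPKM, lay one on each side of it. The log2 difference from the stage's control was -2.38 in iHBs, -1.89 ± 0.912 (SD, n = 2) in iHPs and 0.06 ± 0.403 (SD, n = 2) in iBECs. Here and below a log2 difference is on the log2(RPKM + 1) scale, which understates changes of low genes.

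*Igf1*, the ligand that the adult liver releases under growth hormone, was far lower than *Igf2*. The control values were 2.66 RPKM (iHB), 2.49 RPKM (iHP) and 13.1 RPKM (iBEC). The L1L2_Alb values were 1.20 RPKM for iHB, 1.25 and 2.00 RPKM for iHP, and 7.88 and 9.19 RPKM for iBEC. Each L1L2_Alb library was below the control of its stage, by 0.22 to 0.73 on the log2 scale. All iBEC libraries lay above all libraries of the other 2 stages.

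Both receptors were at their lowest in control iBECs. *Igf1r* had 13.9 RPKM in control iHB, 7.75 RPKM in control iHP and 1.74 RPKM in control iBEC. The L1L2_Alb libraries had 14.4 RPKM of it as iHB, 9.74 and 10.2 RPKM as iHP, and 4.29 and 5.05 RPKM as iBEC. The L1L2_Alb value was the higher in 5 of 5 libraries, and the gap was 0.05 in iHBs, 0.32 ± 0.0391 (SD, n = 2) in iHPs and 1.05 ± 0.137 (SD, n = 2) in iBECs on the log2 scale. *Igf2r* had 53.4, 38.8 and 18.3 RPKM in the iHB, iHP and iBEC controls, and 43.5 RPKM in L1L2_Alb iHB, 41.6 and 32.2 RPKM in L1L2_Alb iHP and 38.7 and 27.8 RPKM in L1L2_Alb iBEC. It was thus higher in 3 and lower in 2 of the 5 L1L2_Alb libraries.

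Of the binding proteins, *Igfbp1* showed the widest range in RPKM. Control iHB gave 643 RPKM and L1L2_Alb iHB 149 RPKM. Control iHP gave the highest value, 1875 RPKM, and the L1L2_Alb iHP libraries gave 349.7 and 179 RPKM. Among iBECs the control gave 905 RPKM and the L1L2_Alb pair gave 938 and 571 RPKM. The 3 L1L2_Alb libraries of iHBs and iHPs lay below every other library, whereas those of iBECs lay on both sides of their control. The ratio of *Igfbp1* to *Igfbp3*, its neighbour on the chromosome, was 5.59, 11.1 and 1.87 in the iHB, iHP and iBEC controls. In the L1L2_Alb libraries it was 1.31 for iHB, 4.18 and 4.92 for iHP and 4.27 and 2.56 for iBEC, so that it was lower than the control before and after hepatocyte differentiation and higher in iBECs.

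*Igfbp2*, a binding protein abundant in the fetal liver, had the opposite direction. Control iHB held 12.2 RPKM of it and L1L2_Alb iHB 86.6 RPKM. Control iHP held 9.18 RPKM, and the L1L2_Alb iHP pair 8.34 and 24.9 RPKM. Control iBEC held only 0.0907 RPKM, or 4 reads, and the L1L2_Alb iBEC pair 3.76 and 1.20 RPKM. It was higher than the control in 4 of 5 L1L2_Alb libraries, all but iHP replicate 1. The 2 iHP replicates had opposite directions.

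*Igfbp3*, the main carrier of IGFs in serum, was lower in the L1L2_Alb libraries of differentiated cells. The iHB libraries gave 115 RPKM (control) and 114 RPKM (L1L2_Alb), a log2 difference of -0.02. The iHP control gave 169 RPKM, and the 2 L1L2_Alb iHP libraries gave 83.7 and 36.4 RPKM. The iBEC control gave 485 RPKM, and the 2 L1L2_Alb iBEC libraries gave 219.8 and 223 RPKM, a log2 difference of -1.13 ± 0.0133 (SD, n = 2). The value in L1L2_Alb iHP replicate 2 was the lowest and that in control iBEC the highest of the 8.

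*Igfbp4*, which PAPP-A cleaves to free IGF, was steadier. The iHB, iHP and iBEC controls held 187, 199 and 253 RPKM, and the L1L2_Alb libraries held 87.7 RPKM for iHB, 120.2 and 164 RPKM for iHP and 198 and 160.4 RPKM for iBEC. *Igfbp6*, which prefers IGF2, had 6.41, 9.95 and 34.6 RPKM in these controls. Its L1L2_Alb values were 6.19 RPKM for iHB, 5.22 and 4.62 RPKM for iHP and 22.5 and 8.75 RPKM for iBEC. Both were lower in 5 of 5 L1L2_Alb libraries. *Igfbp5*, the neighbour of *Igfbp2* on chromosome 1, had 131 reads (0.786 RPKM) in control iHB, 30 reads (0.179 RPKM) in L1L2_Alb iHB and 2 to 23 reads in the other 6 libraries. At that depth no difference of *Igfbp5* in iHPs was detectable.

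**Figure D2:**
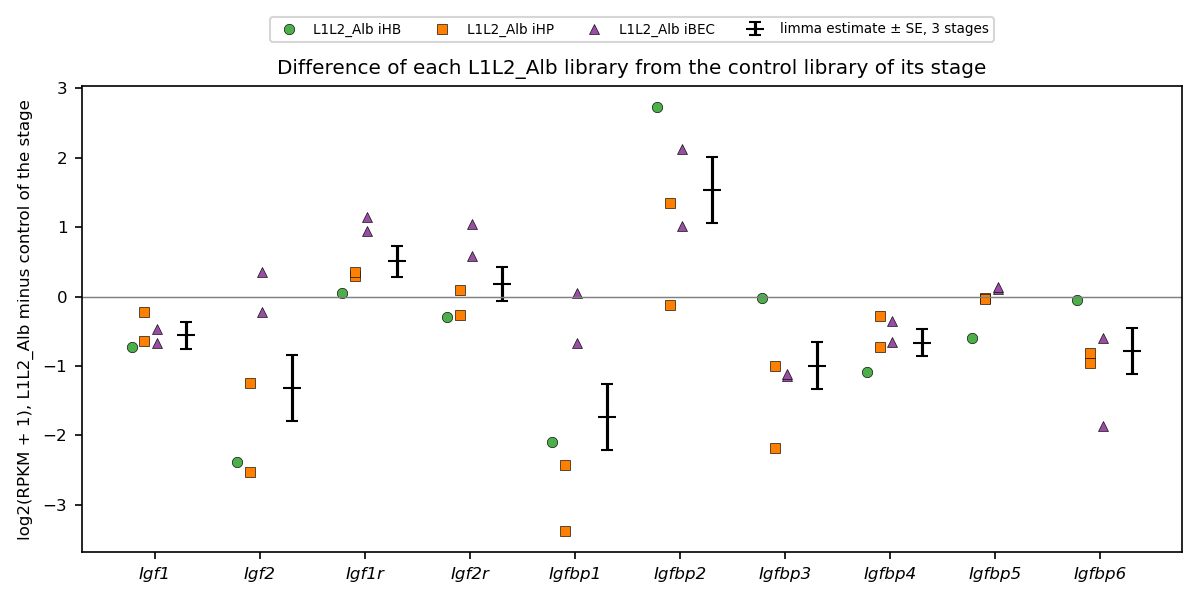
Difference of each L1L2_Alb library from the control library of its stage (vertical axis, log2(RPKM + 1)) for the 10 genes, with 1 symbol per library and, in black, the limma estimate over the 3 stages with its standard error. *Igf2* and *Igfbp1* lay far below 0 in iHBs and iHPs and on both sides of 0 in iBECs, and *Igfbp3* lay near 0 in iHBs alone.

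Across stages, no member passed the test for the genotype label in limma with stage in the fit (0 of 9 at an adjusted p under 0.05, against 9.57% of all tested genes). At an unadjusted p under 0.05 there were 7 of 9 members, against 26.3% of all genes. The estimate for *Igfbp1* was -1.74 (95% interval -2.84 to -0.64, adjusted p = 0.0580), that for *Igf2* was -1.31 (-2.40 to -0.23, adjusted p = 0.121) and that for *Igf1* was -0.56 (-1.02 to -0.10, adjusted p = 0.12). *Igfbp3* had -0.99 (-1.77 to -0.21, adjusted p = 0.107), *Igfbp4* -0.66 (-1.12 to -0.21, adjusted p = 0.0747) and *Igfbp6* -0.78 (-1.53 to -0.03, adjusted p = 0.173). On the other side of 0 lay *Igfbp2* with 1.54 (0.45 to 2.62, adjusted p = 0.0795), *Igf1r* with 0.51 (-0.0028 to 1.03, adjusted p = 0.193) and *Igf2r* with 0.19 (-0.38 to 0.75, adjusted p = 0.692). *Igf1*, *Igfbp3*, *Igfbp4* and *Igfbp6* were lower in 5 of 5 L1L2_Alb libraries, as were 10.1% of all genes, and *Igf1r* was higher in 5 of 5, as were 22.9%. The median over the 9 members was -0.66, against 0.06 over all genes. Leaving out 1 library brought 1 member past the threshold in 3 cases, *Igfbp2* without L1L2_Alb iHP replicate 1 (adjusted p = 0.0339, limma), *Igfbp4* without iHP replicate 2 and *Igfbp1* without iBEC replicate 1.

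With iBECs left out, *Igf2* and *Igfbp1* passed the test. Their log2 differences over iHBs and iHPs were -2.10 (adjusted p = 0.0243) and -2.56 (adjusted p = 0.0123), against 10.4% of all genes called, and 6.5% called lower, in that fit. With iHPs left out instead, neither passed, at -0.99 for *Igf2* (adjusted p = 0.45, limma) and -1.08 for *Igfbp1* (adjusted p = 0.324, limma), nor did they with iHBs left out (adjusted p = 0.415 and 0.216, limma). The difference of the genotype effect between stages was tested on the 6 conditions, and did not pass for any member (0 of 9) or for any gene (0.0% of all tested, by limma's moderated F test). At an unadjusted p under 0.05 the 2 members *Igfbp1* (adjusted p = 0.814, limma) and *Igf2* (adjusted p = 0.911, limma) were left, against 5.46% of all genes. The test had 2 residual degrees of freedom.

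Markers of liver and other cells also differed with the label. Of the 7 hepatocyte genes listed, 5 fell in the genotype fit (*Alb*, *Hnf4a*, *Serpina1a*, *Trf* and *Ttr*), with a median of -1.71, against 3.37% of all genes called lower. None rose, but *Apoa1* (0.65) and *Afp* (0.07) had estimates above 0. The summed level of the 7 was 18724 to 35865 RPKM in the controls and 13497 to 19425 RPKM in the L1L2_Alb libraries. *Alb* in L1L2_Alb iBECs (5499 and 3357 RPKM) was above that in L1L2_Alb iHPs (568 and 526 RPKM), as *Igfbp1* and *Igf2* were. In that comparison 5 of the 7 hepatocyte genes had estimates above 0, and *Alb* alone was called, against 3.16% of all genes called higher. *Apoa1* (-1.05) and *Afp* (-0.96) lay below 0. Of 12 mesenchymal genes, 11 had estimates below 0 without passing the test. The median of the 12 was -1.02, against 0.06 over all genes. Only *Vim* passed, with a rise, 1 of 12 against 6.2% of all genes called higher. The sum of the 12 was 3207 to 5756 RPKM in the controls and 1996 to 4730 RPKM in the L1L2_Alb libraries. No gene of the list was at 0. Of the 7 biliary genes, 2 rose (*Krt7* and *Krt19*) and 2 fell, *Spp1* among them. Over all genes 6.2% were called higher and 3.37% lower. The biliary list had 3 estimates above 0 and 4 below, with a median of -0.36. Macrophage genes summed to 1137 to 2045 and 661 to 2686 RPKM, and erythroid genes to 3.16 to 110 and 2.22 to 22.8 RPKM. Fewer cells of a type and less RNA per cell cannot be told apart in bulk RNA, and the part of these cells in the IGF values was not tested.

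The imprinted neighbour of *Igf2*, the growth-restraining RNA *H19*, fell with the genotype label. The iHB, iHP and iBEC controls held 1290.2, 1926 and 1686 RPKM of it. L1L2_Alb iHB held 108 RPKM, the L1L2_Alb iHP pair 262 and 330.2 RPKM, and the L1L2_Alb iBEC pair 1059 and 1735 RPKM. Its estimate over stages was -2.07 (standard error 0.526, adjusted p = 0.0459, limma), but the call was lost in 7 of 14 alternatives, among them without L1L2_Alb iHP replicate 1 (adjusted p = 0.0904), iHP replicate 2 (0.0832) or iBEC replicate 1 (0.0590), with an adjusted p of up to 0.317. *H19* is expressed from the maternal and *Igf2* from the paternal allele, under one imprinting control region. Both were lower in L1L2_Alb iHBs and iHPs and lay on both sides of the control in iBECs. The ratio of *H19* to *Igf2* was 6.46, 7.89 and 7.14 in the iHB, iHP and iBEC controls. In L1L2_Alb libraries it was 2.89 for iHB, 6.35 and 3.22 for iHP and 5.23 and 5.76 for iBEC. Each of these lay below the control of its stage. Of the 9 imprinted growth genes tested, *H19* was the only one called for genotype, a share near the 9.57% called among all genes. *Sgce* (0.85, adjusted p = 0.0544, limma) and *Cdkn1c* (1.01, adjusted p = 0.0718, limma) lay just outside the threshold, with estimates above 0. Over the 8 libraries the genes with the pattern most like *Igf2* on the log2 scale were *Mir483* (r = 0.998), *Cblc* (0.991), *Mir675* (0.963), *H19* (0.962) and *Itsn1* (0.958). *Mir483* lies inside *Igf2* and *Mir675* inside *H19*, so that they may share reads with the host.

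*Igfbp3* lay below 0 among YAP targets that mostly lay above it. The list of targets includes *Lats2*, whose rise of 0.90 is given above and is counted here. Of the 23 others tested from the list, 19 had estimates above 0 and 4 below, and 14 rose and 1 fell (*Birc5*, a mitotic gene) with the genotype label, with a median of 1.04, whereas 6.2% of all genes were called higher and 3.37% lower. *Igfbp3* had an estimate of -0.99. *Ctgf* went from 523 RPKM in control iHB to 2469 RPKM in L1L2_Alb iHB and from 201 RPKM in control iBEC to 412 and 771 RPKM in L1L2_Alb iBEC, and its r with *Igfbp3* over the 8 libraries was -0.71. The genes with the pattern most like *Igfbp3* were *Masp2* of the complement lectin pathway (r = 0.976), coagulation factor *F10* (0.960), *Pex11a* (0.958), *Sema6b* (0.957) and 4930581F22Rik (0.956). These correlations are descriptions over libraries that share stages and controls.

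Against its paralogs, *Igfbp3* shared the direction of *Igfbp1*, *Igfbp4* and *Igfbp6* and not that of *Igfbp2*. The genotype difference of *Igfbp3* minus that of *Igfbp2* was -2.55 on the log2 scale, below 0 in 5 of 5 L1L2_Alb libraries (exact permutation within stages, two-sided p = 0.111). The same quantity was 0.86 against *Igfbp1* (p = 0.389, exact permutation), -0.22 against *Igfbp4* (p = 0.722), -0.75 against *Igfbp5* (p = 0.222, exact) and -0.19 against *Igfbp6* (p = 0.556, exact). The 18 arrangements allow no p below 0.0556, so none of the 5 comparisons could reach 0.05.

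Other genes with an IGFBP domain, which bind IGF weakly or not at all, lay mostly above 0. Of 9 such genes tested, 7 had estimates above 0, with a median of 0.52 against 0.06 over all genes. In the genotype fit 4 rose and 0 fell, against 6.2% of all genes called higher and 3.37% lower. The 4 that rose were *Crim1* (2.12, adjusted p = 0.00118, limma), *Cyr61* (1.93, adjusted p = 0.00222, limma), *Ctgf* (1.73, adjusted p = 0.00796, limma) and *Igfbp7* (1.01, adjusted p = 0.0282, limma). The first 3 of them are also on the list of YAP targets. *Crim1* and *Cyr61* passed in 14 of 14 alternatives and *Ctgf* in 12, while *Igfbp7* passed in 8, and was lost without iBEC replicate 1 (adjusted p = 0.0521, limma) or iBEC replicate 2 (0.0511). *Igfbp7*, once named a binding protein of this family, had 555 RPKM in control iHB against 1181 RPKM in L1L2_Alb iHB. *Htra1*, a protease with this domain, had 0.45 (adjusted p = 0.585, limma).

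**Figure D3:**
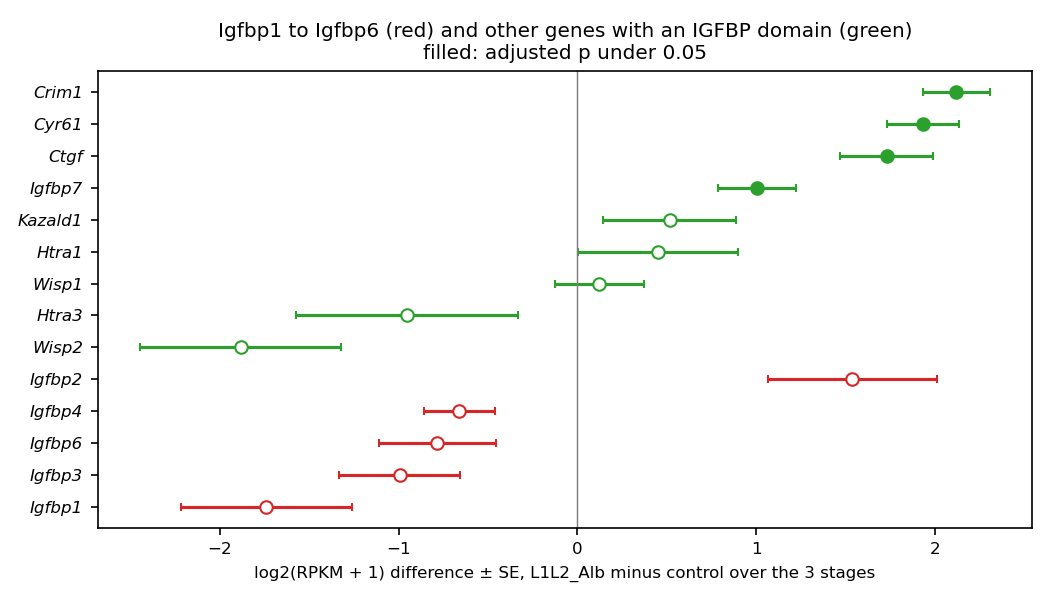
Limma estimate of the genotype difference with its standard error (horizontal axis, log2(RPKM + 1), L1L2_Alb minus control) for *Igfbp1* to *Igfbp6* without the untested *Igfbp5* (red) and for 9 other genes with an IGFBP domain (green), filled where the adjusted p was under 0.05. The 4 filled symbols, *Crim1*, *Cyr61*, *Ctgf* and *Igfbp7*, lie at 1.01 to 2.12, and none of the red symbols is filled.

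Of 24 further genes of the IGF pathway that were tested, 1 rose and 1 fell with the genotype label, no larger a share than the 9.57% called among all genes. *Igf2bp2*, whose product binds *Igf2* mRNA, rose by 0.77 (adjusted p = 0.0402, limma), from 45.1 to 84.9 RPKM in iHBs. *Pik3r1*, the regulatory subunit of the kinase PI3K, fell by 0.77 (adjusted p = 0.0391, limma), from 12.3 to 7.04 RPKM in iHBs. Both calls lay close to the threshold, with *Igf2bp2* passing in 5 and *Pik3r1* in 6 of 14 alternatives. *Igf2bp2* was lost without iHP replicate 1 (adjusted p = 0.0735, limma) or iBEC replicate 2 (0.0856), and *Pik3r1* without iHP replicate 1 (0.0503), iBEC replicate 1 (0.0720) or iBEC replicate 2 (0.0838). The relatives *Igf2bp1* and *Igf2bp3* had 0.61 and -0.03. The insulin receptor *Insr* had -0.16, the adaptor *Irs2* 0.28, the inhibitor *Grb10* -0.44, the serum partner *Igfals* -0.02 (of either sign among the alternatives) and the PAPP-A inhibitor *Stc2* -1.21, none past the test. *Pappa*, which encodes the protease of IGFBP4, and the adaptor *Irs1* were under the level for a test, and *Pappa* had 2.12 RPKM in control iHB against 0.401 RPKM in L1L2_Alb iHB.

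Between stages, with genotype in the fit, iBECs differed from iHBs in 3 of 9 members, against 5.72% of all genes, with 1 higher (2.94% of all genes) and 2 lower (2.78%). At an unadjusted p under 0.05 all 9 passed, against 25.0% of all genes. *Igf1* rose by 2.02 (standard error 0.251, adjusted p = 0.00390, limma). *Igf1r* fell by 1.85 (standard error 0.280, adjusted p = 0.00831, limma) and *Igfbp2* by 4.17 (standard error 0.590, adjusted p = 0.00627, limma). *Igfbp6* with 1.59 (adjusted p = 0.0618, limma) and *Igfbp3* with 1.49 (adjusted p = 0.0869, limma) lay above 0 and did not pass, but each did in 2 of 12 alternatives, *Igfbp6* without iBEC replicate 2 (0.0187) and *Igfbp3* without iHP replicate 2 (0.0254) among them. *Igfbp4* passed with upper-quartile scaling alone (adjusted p = 0.0473, limma). The median of all genes was -0.25 in this comparison, and -0.0045 after upper-quartile scaling, under which the 3 calls held.

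Against iHPs, iBECs differed in 4 of 9 members, against 4.12% of all genes, with 2 higher (2.45%) and 2 lower (1.67%). At an unadjusted p under 0.05 there were 6 of 9, against 22.2%. *Igf1* (1.92, adjusted p = 0.00725, limma) and *Igfbp3* (1.82, standard error 0.376, adjusted p = 0.0385, limma) rose. *Igf1r* (-1.19, adjusted p = 0.0398, limma) and *Igfbp2* (-2.58, adjusted p = 0.0366, limma) fell. The 23 other YAP targets had 0 called higher and 4 called lower in this comparison, with 2 estimates above 0 and 21 below. Of these calls only that of *Igf1* held whichever L1L2_Alb iHP or iBEC library was left out, and with the pairs averaged it too was lost (adjusted p = 0.0548, limma). *Igfbp3* and *Igf1r* held without iHP replicate 2 alone, and *Igfbp2* held without iHP replicate 1 alone. The largest adjusted p of *Igfbp3* among the alternatives was 0.111, without L1L2_Alb iBEC replicate 2. The 3 stage comparisons share libraries and are not independent.

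**Figure D4:**
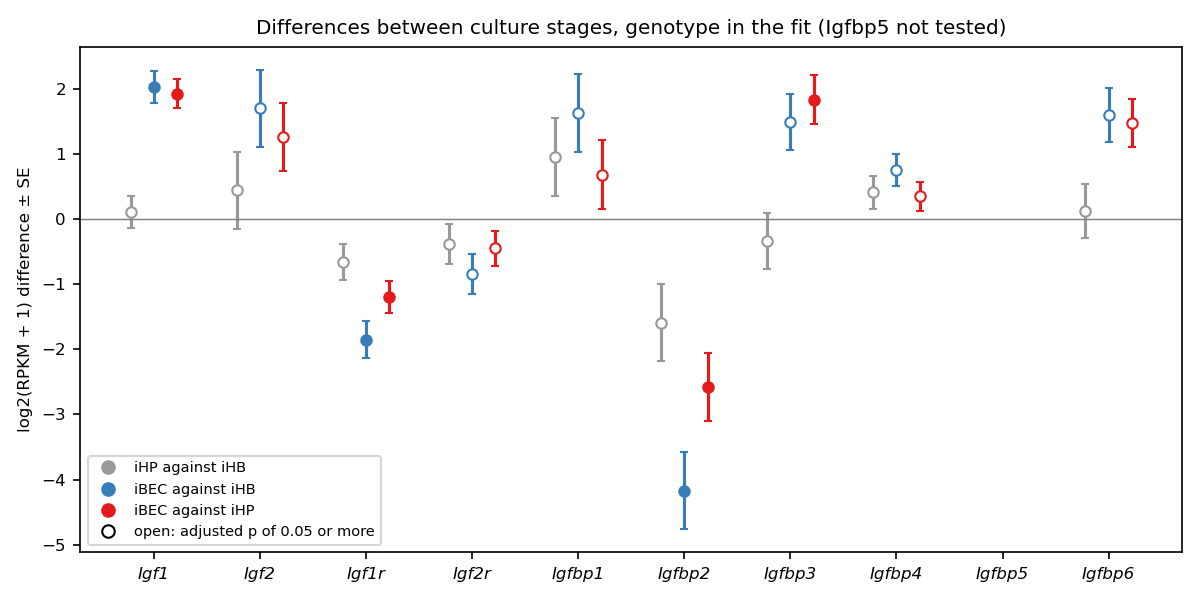
Limma estimates of the differences between culture stages with their standard errors (vertical axis, log2(RPKM + 1)) for the 9 tested genes, grey for iHP against iHB, blue for iBEC against iHB and red for iBEC against iHP, filled where the adjusted p was under 0.05. The filled symbols are *Igf1*, *Igf1r* and *Igfbp2* in both comparisons of iBECs and *Igfbp3* against iHPs.

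Between iHPs and iHBs 0 of 9 members and 0.0% of all genes passed, and at an unadjusted p under 0.05 there were 2 members, *Igfbp2* and *Igf1r*, against 8.63% of all genes (limma). The controls alone, with 1 library each and no test, differed most in *Igfbp1* on the log2(RPKM + 1) scale, by the 643 and 1875 RPKM given above.

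The 2 L1L2_Alb iBEC libraries against the 2 L1L2_Alb iHP libraries, the only comparison with 2 libraries on both sides, called 1 of 9 members, against 3.67% of all genes, and 7 of 9 at an unadjusted p under 0.05, against 18.8%. The call was a rise, as in 3.16% of all genes, and 0 members were called lower (0.507%). *Igf1* rose by 1.87 (standard error 0.315, adjusted p = 0.0291, limma). *Igfbp3* had 1.98 (adjusted p = 0.0540, limma), *Igf2* 1.90 (adjusted p = 0.0775, limma) and *Igfbp2* -2.26 (adjusted p = 0.0793, limma). *Igf2* was at 41.4 and 103 RPKM in these iHPs against 203 and 301 RPKM in these iBECs. The *Igf1* call was lost without any 1 of the 4 libraries, with an adjusted p of up to 0.202. *H19* (2.20, adjusted p = 0.0382, limma), the imprinted *Dlk1* (1.65, adjusted p = 0.0381, limma) and the PAPP-A inhibitor *Stc1* (2.20, adjusted p = 0.0441, limma) rose as well. Each of these 3 calls was also lost without any 1 of the 4 libraries, with limma's adjusted p reaching 0.308, 0.307 and 0.26. *H19* and *Dlk1* were the 2 called of 9 imprinted growth genes tested, with 4 estimates above 0 and 5 below (median -0.25). *Stc1* was the 1 called of 24 further IGF pathway genes, with 8 estimates above 0 and 16 below (median -0.08). Over all genes 3.16% were called higher.

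Markers of other cell types differed between L1L2_Alb iBECs and L1L2_Alb iHPs. The mesenchymal and macrophage sums, which mostly follow the most abundant genes of each list, were not higher in control iBECs. In L1L2_Alb iBECs against L1L2_Alb iHPs, 3 of 12 mesenchymal genes rose (*Dcn*, *Lum* and *Thy1*, median of the list 1.61), against 3.16% of all genes. The sum of the 12 was 4730 and 3176 RPKM against 1996 and 2913 RPKM. In control iHB, iHP and iBEC it was 5756, 3520 and 3207 RPKM. Of the 6 macrophage genes *Emr1* alone was called, with a rise, and their sum was 2485 and 2686 against 661 and 1243 RPKM. In control iHB, iHP and iBEC this sum was 2045, 1368 and 1137 RPKM. With both genotypes in the fit, 10 of the 12 mesenchymal genes had estimates above 0 in iBECs against iHPs and 2 below (median 0.97). Of these 12 *Lum* alone was called (3.89, adjusted p = 0.0485, limma), against 2.45% of all genes called higher. *Lyve1*, a marker of sinusoidal endothelium, was at 17.2 to 22.1 RPKM in the iBEC libraries and at 0.832 to 7.18 RPKM in the others, while *Cdh5* and *Tek* stayed at or under 0.538 and 0.151 RPKM. In L1L2_Alb iBECs against L1L2_Alb iHPs the 3 tested endothelial genes had estimates above 0 (*Lyve1* 2.28, *Pecam1* 0.13, *Kdr* 0.01), and none was called. With both genotypes in the fit, *Lyve1* was called higher in iBECs against iHBs (2.47, adjusted p = 0.0351, limma). It was also called against iHPs (2.24, adjusted p = 0.0415, limma). Over all genes 2.94% and 2.45% were called higher in these 2 comparisons. *Pecam1* (-0.87) and *Kdr* (-0.40) had estimates below 0 in iBECs against iHBs, and neither was called. The part of these cells in the levels of *Igf1* and *Igfbp3* was not tested.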

How the data were processed

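RNA-seq was from 3 control and 5 L1L2_Alb libraries. The authors deposited 1 table of RPKM per gene and library. The unit was inferred from whole-read steps of short genes, which also gave the depth of each library. The submitters' processing notes name Bowtie 0.12.2 and mm8. Whole reads came out for 8 of the 10 members (within 0.02 of a whole number), but not for *Igf1* and *Igf2*. 4 entries of 2 repeated symbols were left out.

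The fits used log2(RPKM + 1) of all genes whose mean reached 1 RPKM, in limma 3.58.1 (eBayes with trend, R 4.3.3), on stage and genotype (4 residual degrees of freedom), and on the 6 conditions for stage-dependent effects and for L1L2_Alb iBEC against L1L2_Alb iHP. Every adjusted p is two-sided, by the Benjamini-Hochberg method over all tested genes. Differences between paralogs were tested by exact permutation within stages (scipy 1.17.1). No count model was run, since the values are not counts. Whether strand was used in counting is not given in the sources used here, so overlapping genes are uncertain.

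The genes described are the 10 members, fixed related genes and the 5 most correlated genes for *Igf2* and *Igfbp3*. From the IGF lists, genes called for genotype or in L1L2_Alb iBECs against L1L2_Alb iHPs are also described. List genes called in the other stage comparisons, such as *Wisp1* in iBECs against iHBs (-1.77, adjusted p = 0.0159, limma), are not all named. Members and lists were chosen with earlier results of these data known.

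Alternatives were a pseudocount of 0.1, upper-quartile and quantile scaling, no filter, a mean of at least 5 RPKM, no trend, leaving out libraries or stages, averaging pairs, and a replicate block. Label and methods differ on Oncostatin M (5 and 6 days). A biliary gene of the marker list is not reported here.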

Additional observations from a re-analysis of the deposited data

Results flagged for a closer look

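*Igf2r* moved in opposite directions in 2 stages. The L1L2_Alb iHB library was below its control by a log2 difference of -0.29, while both L1L2_Alb iBEC libraries were above theirs, by a mean of 0.81. The difference between these stages was not tested on its own, and the test over all 3 stages gave an unadjusted p of 0.179 and an adjusted p of 1.00 in limma. There was 1 library on the iHB side.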

How the results depend on the processing

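Depth limited *Igfbp5* and *Igfbp2* in control iBECs (4 reads), and 1 control library per stage limited all genotype comparisons. The 0 members called for genotype became 1 with upper-quartile scaling (*Igfbp4*), 2 with quantile normalization (*Igfbp1* and *Igfbp4*), 2 without iBECs (*Igf2* and *Igfbp1*), and 0 to 1 when each replicate was left out (*Igfbp2* without L1L2_Alb iHP replicate 1, *Igfbp4* without iHP replicate 2, *Igfbp1* without iBEC replicate 1). The 4 called for iBECs against iHPs became 1 without the filter and 0 with averaged pairs, and 1 to 3 with each replicate left out. The 1 called in L1L2_Alb iBECs against L1L2_Alb iHPs became 2 with upper-quartile scaling (*Igf1* and *Igfbp3*), and 0 with quantile normalization, no filter, a mean of at least 5 RPKM (under which *Igf1* was not tested) or any replicate left out (0 to 0). With the replicate block on those 4 libraries it became 5 (*Igf1*, *Igf2*, *Igfbp1*, *Igfbp2* and *Igfbp3*), and without the block, added after seeing the data, it was 1. Same-numbered libraries deviated with a correlation of -0.02 over genes, so no pairing by number was seen. With only 2 libraries in each condition, this cannot settle whether same-numbered libraries shared an origin. The causes of these changes were not tested.

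Signs turned for genotype for *Igf2r* without iBECs (-0.17), for *Igf2bp3* without iHBs (0.13) and for *Igfals* with quantile normalization (0.0752), without iHBs (0.0083), without iHPs (0.12) and with each replicate left out (-0.057 to 0.0603, above 0 without iHP replicate 1), and under leave-one-out for *Igf1* (-0.0189 to 0.19) and *Igfbp3* (-0.53 to 0.0553) in iHPs against iHBs (both without iHP replicate 2), for *Igf2r* in L1L2_Alb iBECs against iHPs (-0.39 to 0.0775, above 0 without iHP replicate 1, 0.03, or iBEC replicate 2), and for *Igfbp3* relative to *Igfbp4* (-0.49 to 0.0534, without iHP replicate 2) and to *Igfbp6* (-0.41 to 0.0235, without iBEC replicate 1). The other differences of the 9 tested members, and those of the other list genes for which alternatives were run, kept their sign. The calls of *Igf1*, *Igf1r* and *Igfbp2* in iBECs against iHBs held in every alternative in which they were tested.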
